A study of Penicillium oxalicum with 9 samples.

Results

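The mutants of *Penicillium oxalicum* that lack *rsrA* or *rsrB* were set against each other directly, using the 3 libraries of each mutant out of the 9 libraries of the series. A gene was tested where its FPKM averaged 1 or more over these 6 libraries, which left 8491 of 9721 listed genes. FPKM gives the fragments of a gene scaled for the length of its transcript and for the depth of the library. Both mutants had been made in the parental strain Δ*ku70*, which lacks *PoxKu70*, a gene of non-homologous end joining, so this deletion is common to all groups. Δ*rsrA* additionally lacks POX01907 and Δ*rsrB* lacks POX08340, and the 3 Δ*ku70* libraries serve here only as a reference level. The genotype label of the Δ*ku70* libraries reads WT, although their titles name *PoxKu70*. Spores from PDA plates, grown for 4 days at 28 °C according to the labels, were cultured for 24 h with glucose, and the mycelia were then kept for 24 h in enzyme production medium. As carbon source of this medium the labels give both raw starch and Avicel (microcrystalline cellulose) for the same libraries, and the paper names starch of corn. The paper calls the libraries of a strain biological replicates. Whether the mycelia were free of spores could not be checked against marker genes, because the identifiers in the files are not paired with names.

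RsrA and RsrB are transcription factors (TFs) that act on the production of raw starch-degrading enzymes, the amylases that filamentous fungi secrete to break down starch granules without prior cooking. RsrA carries SANT-like domains, a fold related to the DNA-binding repeat of Myb proteins, and RsrB belongs to the zinc binuclear cluster proteins, a family of DNA-binding regulators typical of fungi. In such circuits a TF can act on a target gene directly, or through another TF whose gene it controls. A comparison of 2 deletion strains shows for which genes the loss of one factor left a different transcript level than the loss of the other. It does not show by itself which of the strains had moved away from the parent, and for that reason the Δ*ku70* level is given beside the results.

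The deleted genes were examined first, since they check the labels. *rsrA*, listed under its former identifier POX01907, had an FPKM of 0.01, 0.01 and 0.04 in Δ*rsrA*, against 24.2, 20.4 and 19.9 in Δ*rsrB* and 22.9, 17.1 and 16.5 in Δ*ku70*. The values of Δ*rsrA* lay far below all others, and those of Δ*rsrB* and Δ*ku70* overlapped. The log2 difference between Δ*rsrA* and Δ*rsrB* on the log2(FPKM + 1) scale was -4.46 (standard error 0.13, adjusted p = 7.68e-07, limma), and this size is limited by the added 1. *rsrB* was taken to be POX08340, the gene named in the titles of the other mutant. The paper gives *rsrB* as POX_g08691, and no source used here pairs these identifiers. POX08340 had an FPKM of 8.26, 8.01 and 7.28 in Δ*rsrA* and 0, 0 and 0 in Δ*rsrB*, against 30.6, 35.7 and 30.6 in Δ*ku70*. No fold is given against a strain in which a gene is listed at 0. The gene named in the label of each mutant was thus listed at or near 0 there, and the residual *rsrB* level of Δ*rsrA*, 7.85 ± 0.509 (SD, n = 3), was 24.3% of the Δ*ku70* mean. In the comparison of the mutants, *rsrB* was thus low on one side and listed at 0 on the other, whereas *rsrA* was present at about its parental level on one side only.

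The transcriptomes of the mutants differed broadly. Of the 8491 genes tested, 5123 (60.3%) differed between Δ*rsrA* and Δ*rsrB* with an adjusted p under 0.05 (limma on log2(FPKM + 1), Benjamini-Hochberg adjustment over all genes tested). Of these, 1294 (15.2%) were higher and 3829 (45.1%) were lower in Δ*rsrA*. The difference was at least 2-fold in 1791 genes (21.1%), of which 601 (7.08%) were higher in Δ*rsrA* and 1190 (14%) were lower. Differences of at least 4-fold numbered 157 higher and 292 lower genes, and of at least 16-fold 31 higher and 38 lower genes. The share of lower genes was therefore 74.7% among all genes called, 66.4% at 2-fold and 55.1% at 16-fold with FPKM as deposited.

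**Figure D1:**
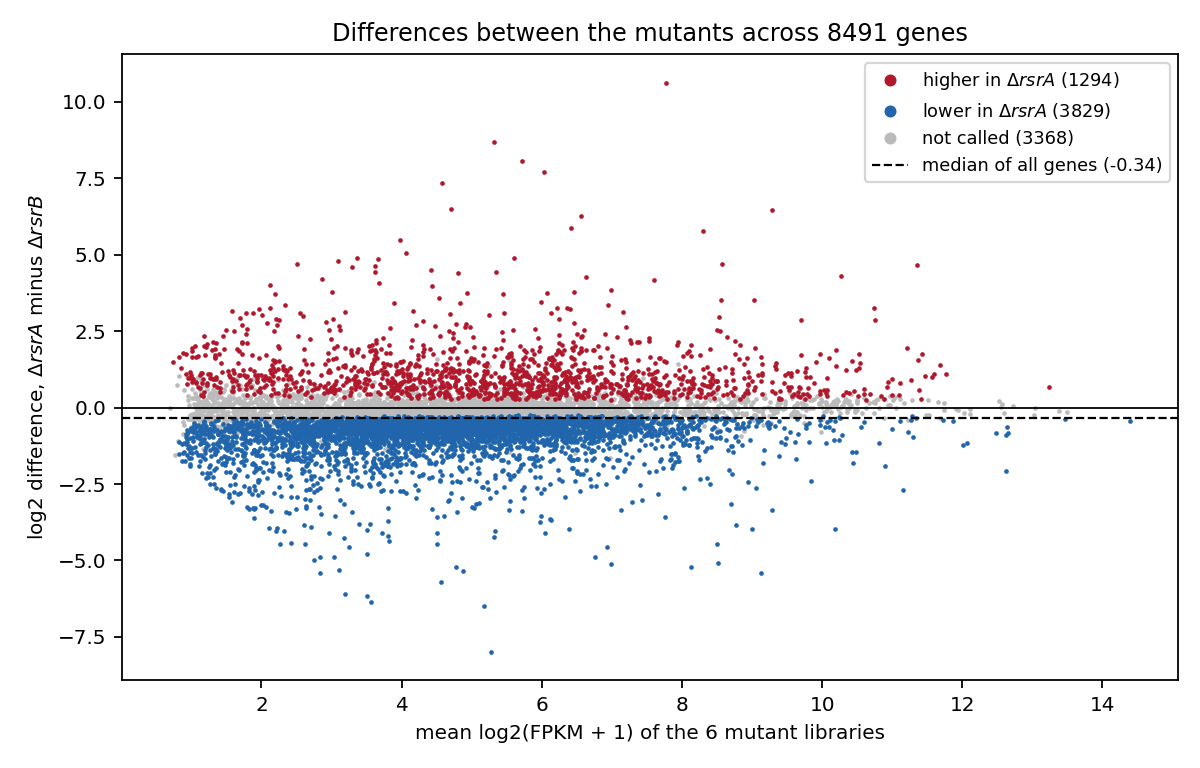
Log2 difference of Δ*rsrA* minus Δ*rsrB* (vertical axis) against the mean log2(FPKM + 1) of the 6 mutant libraries (horizontal axis), 1 point per tested gene. The 1294 genes higher and the 3829 genes lower in Δ*rsrA* are coloured, and the dashed line at -0.34 is the median of all genes, which lies below 0 as the bulk of the genes does.

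The balance between higher and lower calls depended on how the libraries were scaled. Over all 8491 genes the median log2 difference was -0.34, and it was -0.34, -0.34 and -0.35 between the libraries numbered 1, 2 and 3, so the typical gene was lower in Δ*rsrA* to a like extent in each pair. Rescaling each library to the same total left the median at -0.30, with 1371 genes higher and 3490 lower in Δ*rsrA*. Scaling by the median of ratios, which sets the typical gene to about the same level in every library (median -0.01), gave 2211 higher and 2005 lower genes, and quantile normalization gave 1919 higher and 2070 lower genes. At 2-fold or more, the majority turned round under both of these scalings, with 947 higher and 700 lower genes under the median of ratios and 880 higher and 720 lower genes after quantile normalization. The number of genes that differ between the mutants was thus large under each scaling, but lower genes made up 74.7% of the calls with FPKM as deposited and 71.8% with equal totals, against 47.6% under the median of ratios and 51.9% after quantile normalization. In FPKM, a lower transcript level of most genes and a larger share taken by other genes cannot be told apart.

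Scaling changed which genes were called, and rarely the direction of a call. Among the 8461 genes tested under all 4 scalings, 1275 were called higher and 1783 were called lower in Δ*rsrA* each time, and 2 were called in opposite directions between scalings. These are 98.6% of the higher and 46.8% of the lower genes called with FPKM as deposited. Each of the other scalings moved the median log2 difference up, from -0.34 to -0.30, -0.01 and -0.05. Such a shift favours higher calls and removes lower ones, so these percents do not show that the higher calls were firmer. At 2-fold or more under each scaling, 596 genes were higher and 649 lower. Among these 2-fold genes the directions were of nearly equal size. Of the calls of any size with FPKM as deposited, most of the higher but under 50% of the lower were common to the 4 scalings.

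**Figure D2:**
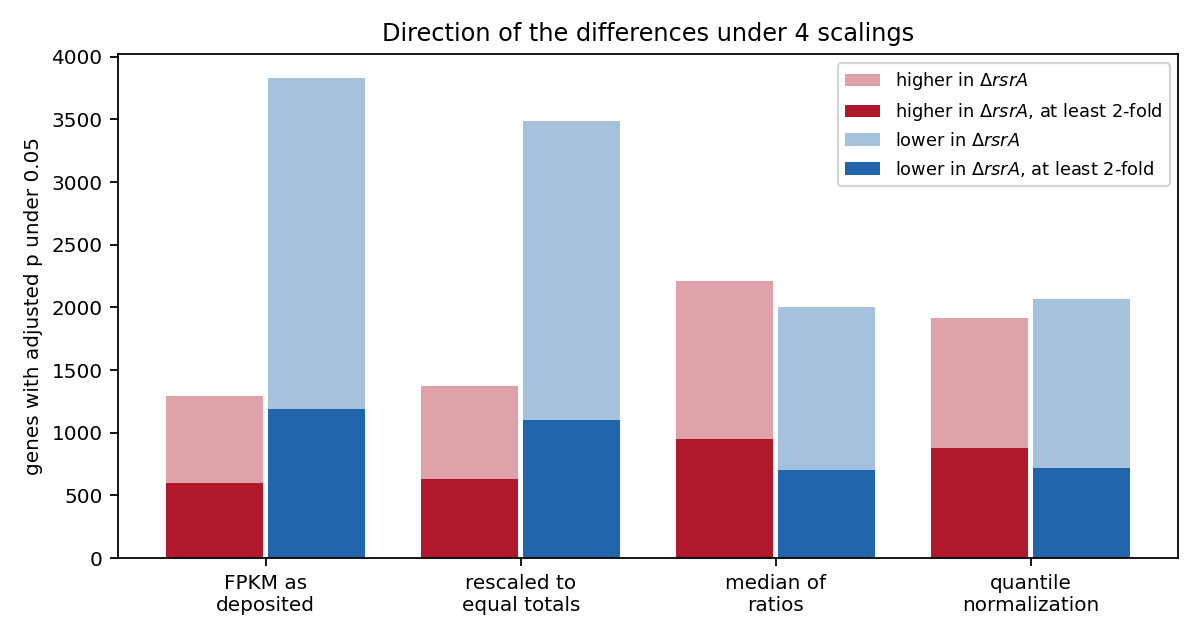
Number of genes with an adjusted p under 0.05 (limma) that were higher (red) or lower (blue) in Δ*rsrA* than in Δ*rsrB* under 4 scalings of the same 6 libraries, with the part of at least 2-fold in full colour. Lower genes prevail at 3829 to 1294 with FPKM as deposited and no longer do at 2005 to 2211 under the median of ratios.

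The differences were set beside the spread between replicates, with FPKM as deposited. The median SD of log2(FPKM + 1) over the tested genes was 0.14 in Δ*rsrA* and 0.17 in Δ*rsrB*, while the median absolute difference over the same genes was 0.55. All 3 values of one mutant lay above all 3 of the other in 5635 genes (66.4%), with Δ*rsrA* above in 1442 (17%) and below in 4193 (49.4%). Both measures include the median shift of -0.34, which depended on the scaling. With 3 libraries against 3, some genes separate by order alone, and their expected number was not computed. Without 1 of the 6 libraries at a time, between 4096 and 5207 genes were called, the fewest without Δ*rsrB* replicate 2.

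For the remaining 3368 genes the test did not separate the mutants, which does not show that their levels were the same. In 2825 of these genes the 95% confidence interval of the log2 difference lay within -1 and 1. A 2-fold difference on the log2(FPKM + 1) scale is thus outside their interval. For weakly expressed genes the added 1 shrinks differences, so a 2-fold difference in FPKM itself may still lie inside. The other 543 genes had intervals that reached a 2-fold difference. For most of the genes not called, the data thus limited the difference to under 2-fold on this scale.

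With FPKM as deposited, the balance of directions changed with expression level more than the proportion of genes called. In classes of mean FPKM of 1 to 10, 10 to 100, 100 to 1000 and 1000 or more, 58.6%, 60.1%, 64.8% and 52.3% of the genes were called. Lower genes made up 78.6%, 78.5%, 60.9% and 45.6% of the calls in these classes, and the median log2 difference was -0.41, -0.37, -0.19 and 0.09. Weakly expressed genes thus tended to be lower in Δ*rsrA* and the 197 genes of the highest class were about evenly divided, with 56 higher and 47 lower. Under the median of ratios the share of lower genes fell along the same classes, at 61.6%, 48.7%, 32.8% and 17.2%, and the proportion called was 48.3%, 46.5%, 59.4% and 73.6%. Quantile normalization, which forces the libraries to one distribution of levels, removed the trend in direction, with 52.1%, 51.4%, 52.7% and 53.3% lower genes, while 44.6%, 44.2%, 59.0% and 54.3% of the genes were called.

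**Figure D3:**
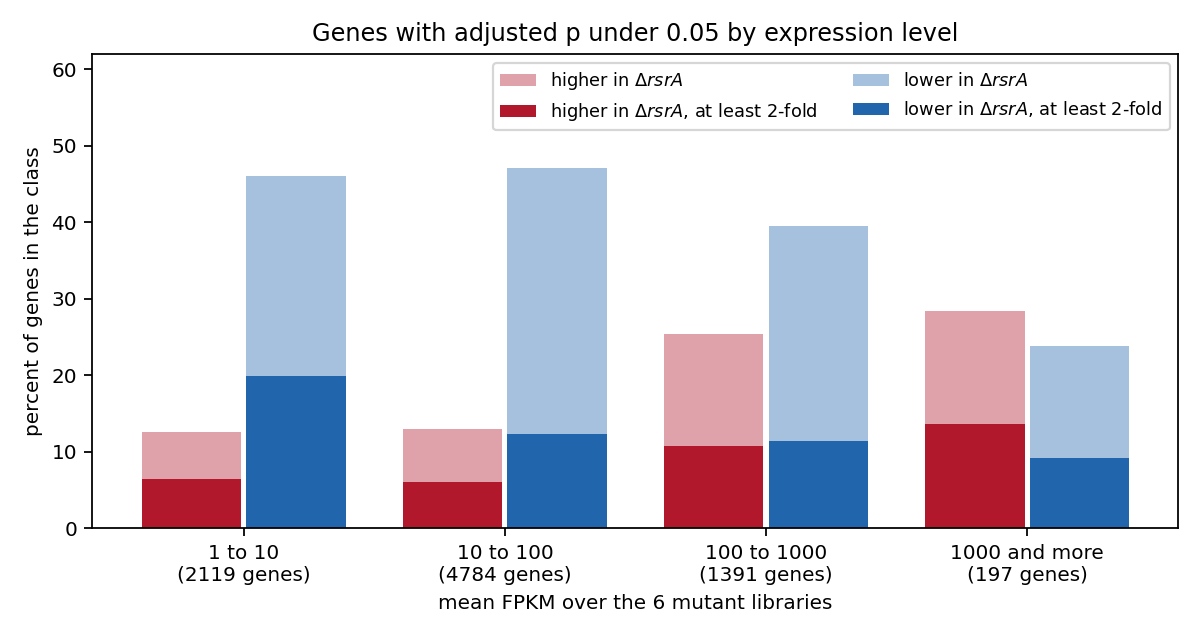
Percent of the tested genes in each class of mean FPKM that were called higher (red) or lower (blue) in Δ*rsrA* than in Δ*rsrB* with FPKM as deposited, with the part of at least 2-fold in full colour. The blue bars exceed the red ones in the 3 lower classes, and in the class of 1000 or more the order is 56 higher to 47 lower genes.

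The most abundant transcripts were called about as often as the tested genes as a whole. The 100 genes with the highest mean FPKM, from 1580 to 21898, took 32.9% to 36.8% of the total in the 6 libraries. With FPKM as deposited, 33 of these were higher and 25 lower in Δ*rsrA*, 17 and 10 of them by at least 2-fold, and 42 were not called. Their log2 differences ran from -5.41 to 10.63 with a median of 0.11. Over all genes tested, 60.3% were called, and 21.1% were called with a difference of at least 2-fold.

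The calls also divided the summed FPKM differently in the mutants, which restates the calls in terms of abundance and is not a separate test. The genes higher in Δ*rsrA* held 34.5%, 34.8% and 35.4% of the total in its 3 libraries, against 15.02%, 14.97% and 14.79% in Δ*rsrB*. In Δ*ku70* they held 18.3%, 20.7% and 21.2%. The genes lower in Δ*rsrA* held 24.2%, 23.6% and 23.2% of its total, against 45.4%, 43.5% and 42.9% in Δ*rsrB* and 38.9%, 41.5% and 38.9% in Δ*ku70*. For both sets the Δ*ku70* libraries lay between the mutants, closer to Δ*rsrB*. The 10 genes that gained most FPKM held 6.79% to 6.90% of the total in Δ*rsrA* and 1.33% to 1.40% in Δ*rsrB*, against 2.08%, 4.65% and 4.70% in Δ*ku70*, where replicates 2 and 3 were nearer to Δ*rsrA*. The 10 genes that lost most held 3.90% to 4.37% in Δ*rsrA* and 7.85% to 9.01% in Δ*rsrB*, against 6.04%, 7.47% and 6.10% in Δ*ku70*. Here replicates 1 and 3 of Δ*ku70* were slightly nearer to Δ*rsrA*, and replicate 2 was nearer to Δ*rsrB*. These shares move with the set of genes called. In Δ*rsrA* the higher genes held 34.9% on average, but 57.0% with the genes called under the median of ratios, and the lower genes held 23.7%, but 9.77% under the median of ratios and 14.0% with the fit over all 9 libraries.

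Among genes whose values did not overlap between the mutants, POX08689 differed most. It had an FPKM of 9050, 8441 and 8654 in Δ*rsrA*, against 4.57, 4.00 and 4.97 in Δ*rsrB* and 0.31, 5.91 and 12.8 in Δ*ku70*. It was the 7th most abundant gene of Δ*rsrA* by mean FPKM and took 0.808% to 0.867% of the total in its libraries, whereas it ranked 7471 in Δ*rsrB*. The log2 difference was 10.63 (standard error 0.10, adjusted p = 6.15e-09, limma), and the ratio of the mean FPKM without the added 1 was 1931. The Δ*rsrB* values lay within the range of Δ*ku70*, and only Δ*rsrA* stood apart. What this gene encodes is not given by the files, the paper or the reference.

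POX08688 showed the same pattern at a lower level. Its FPKM was 819, 754 and 846 in Δ*rsrA*, against 0.90, 1.23 and 0.80 in Δ*rsrB* and 0.34, 0.68 and 0.98 in Δ*ku70*. Again Δ*rsrA* alone was high, with a log2 difference of 8.68 (standard error 0.12, adjusted p = 3.75e-08, limma) and a ratio of mean FPKM of 826. The numbers of both genes follow each other in the list of identifiers.

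POX07173 was lower in Δ*rsrA* by the largest difference. Its FPKM was 1.53, 0.99 and 1.80 in Δ*rsrA*, against 646, 603 and 593 in Δ*rsrB*. The log2 difference was -7.99 (standard error 0.14, adjusted p = 9.17e-08, limma). In Δ*ku70* it was 9.53, 363 and 422, so that replicates 2 and 3 lay nearer to Δ*rsrB* and replicate 1 nearer to Δ*rsrA*, all 3 between the mutants. The reference level of this gene thus differed between the parental libraries far more than the levels within either mutant.

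POX07270 was next, with an FPKM of 2.44, 3.44 and 2.65 in Δ*rsrA*, against 312, 420 and 303 in Δ*rsrB* and 19.5, 73.3 and 52.1 in Δ*ku70*. The log2 difference was -6.48 (standard error 0.16, adjusted p = 3.78e-07, limma). The 3 Δ*ku70* values lay between the mutants without overlap with either, so that this gene was below the parental range in one mutant and above it in the other. For each of the 4 genes, a two-sided exact permutation test of the 6 libraries gave p = 0.1, the smallest value that 3 libraries against 3 allow. These genes were chosen among those without overlap between the mutants, which fixes this p in advance, so it adds no support.

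**Figure D4:**
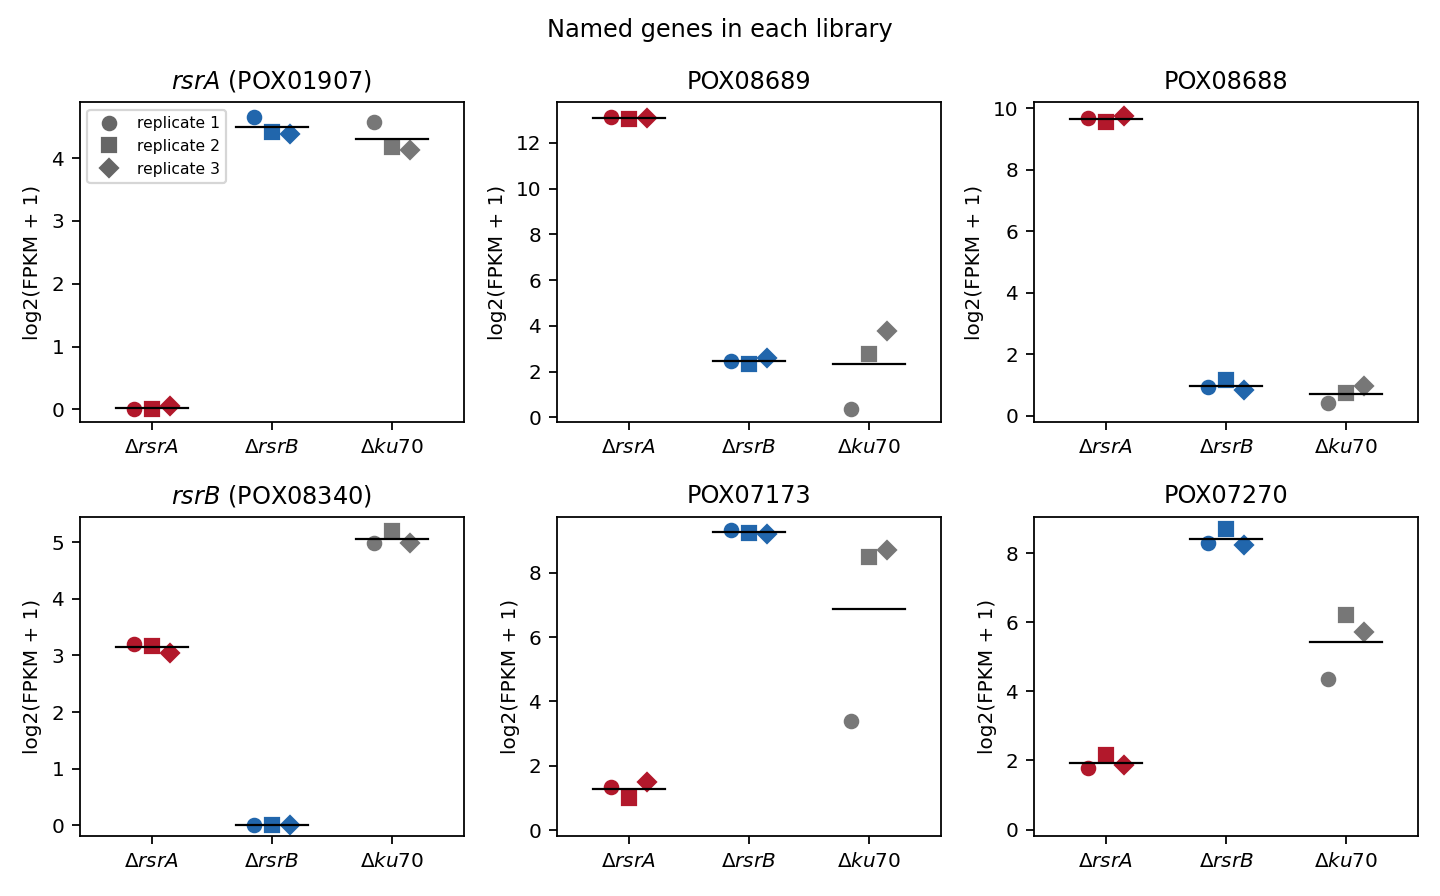
Log2(FPKM + 1) of *rsrA*, *rsrB* and the 4 genes named by rule in the libraries of Δ*rsrA*, Δ*rsrB* and Δ*ku70*, with 1 point per library and the line at the strain mean. POX08689 and POX08688 are high in Δ*rsrA* only, POX07173 and POX07270 are low in Δ*rsrA* and high in Δ*rsrB*, and the Δ*ku70* libraries spread most in POX07173, from 9.53 to 422 FPKM.

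The 25 most changed genes in each direction, ranked by the same rule, differed in where Δ*ku70* lay. The 25 higher genes had log2 differences of 4.41 to 10.63, with median mean FPKM of 248 in Δ*rsrA* against 2.25 in Δ*rsrB* and 5.55 in Δ*ku70*. For all 25 of them the Δ*ku70* mean of log2(FPKM + 1) was nearer to Δ*rsrB*. The 25 lower genes had log2 differences of -7.99 to -4.42, with median mean FPKM of 1.44 in Δ*rsrA* against 107 in Δ*rsrB* and 59.6 in Δ*ku70*. Here Δ*ku70* was nearer to Δ*rsrB* in 16 genes and nearer to Δ*rsrA* in 9. The parental level of these genes was thus on the side of Δ*rsrB* throughout the higher list and divided in the lower list. The higher list includes a run of 8 genes with consecutive identifiers, whose log2 differences were 5.79 or more.

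Over all genes that differed at least 2-fold, the parental level was more often nearer to Δ*rsrB* than to Δ*rsrA*. This was so for 431 of 601 higher genes (71.7%) and 913 of 1190 lower genes (76.7%). The mean of Δ*ku70* lay between the mutants in 368 of the higher and 776 of the lower genes, beyond Δ*rsrB* in 190 and 357, and beyond Δ*rsrA* in 43 and 57. Δ*ku70* replicate 1 had the lowest summed FPKM of the 9 libraries (950456) and stood apart in POX07173 and in further genes. Δ*ku70* was kept out of the fit because 1 of its libraries was less like the others. The parental means given here include that library, so each parental library was also taken alone. Replicates 1, 2 and 3 were nearer to Δ*rsrB* in 75.0%, 68.9% and 69.4% of the higher genes and in 61.8%, 75.5% and 81.0% of the lower genes. The majority had the same direction with each library, and its size for the lower genes moved with the library. These counts describe positions, and no test of Δ*ku70* against a mutant enters them.

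**Figure D5:**
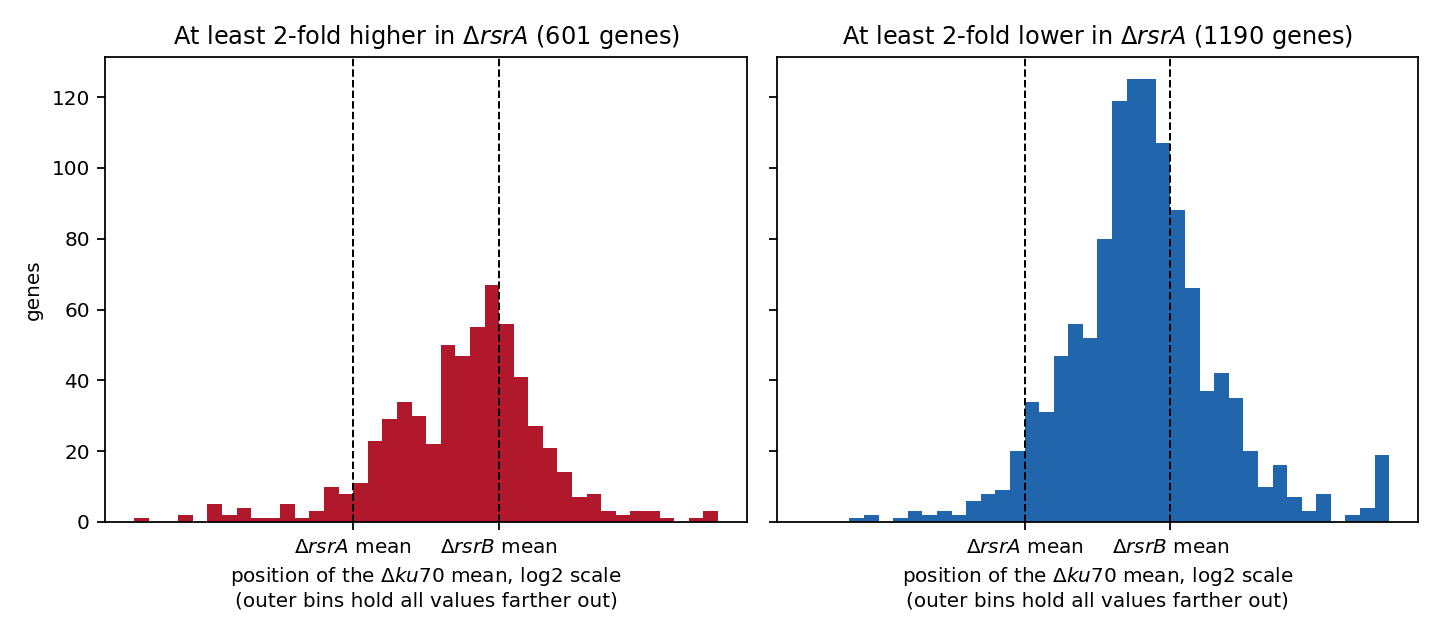
Position of the Δ*ku70* mean of log2(FPKM + 1) between the mean of Δ*rsrA* (left dashed line) and the mean of Δ*rsrB* (right dashed line), as the number of genes (vertical axis) that differed at least 2-fold. In both panels, 601 genes higher and 1190 genes lower in Δ*rsrA*, most of the genes gather around the line of Δ*rsrB*.

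The ranges of single libraries gave a stricter view of the same genes. The range of the 3 Δ*ku70* values overlapped the range of Δ*rsrB* but not that of Δ*rsrA* in 315 of the 601 higher genes (52.4%) and in 581 of the 1190 lower genes (48.8%). The reverse, an overlap with Δ*rsrA* but not with Δ*rsrB*, was found in 80 (13.3%) and 151 (12.7%). The parental range met neither mutant in 127 higher and 339 lower genes, and both in 79 and 119. Without Δ*ku70* replicate 1, which narrows the parental range, the overlap was with Δ*rsrB* alone in 238 higher and 493 lower genes, with Δ*rsrA* alone in 77 and 100, and with neither in 270 and 574. With or without that library, genes in which Δ*rsrA* alone stood outside the parental range outnumbered those in which Δ*rsrB* alone did.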

How the data were processed

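Poly(A) RNA of 9 mycelium samples, 3 each of Δ*rsrA*, Δ*rsrB* and Δ*ku70*, was sequenced at BGI, and strain and number of each library come from its title. The authors deposited FPKM values, 1 list of 9721 genes per library, rounded to hundredths. In the methods of the paper, BWA, RSEM, Bowtie2 and NOISeq are named with no step given, and the submitters' processing notes name bcl2fastq and HISAT2. Filters and strandedness are not given in the sources used here. Absolute depth is unknown, so no counting error is given. The most frequent ratio between low FPKM values of the same gene, shared by 12.3% to 22.8% of 236 to 252 weakly expressed genes, put the other 5 mutant libraries at 1 to 1.02 times the depth of Δ*rsrA* replicate 1. FPKM summed to 998483 to 1086112 in the 6 mutant libraries, and 324 to 478 genes were listed at 0 in each.

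Values were transformed to log2(FPKM + 1), which understates the change of weakly expressed genes, and a gene was kept where its FPKM averaged 1 or more in the 6 mutant libraries. Both mutants were compared by limma 3.58.1 (R 4.3.3; lmFit, then eBayes with a trend), with no block, and a call required p under 0.05 after Benjamini-Hochberg adjustment. NOISeq was not used here. Named genes were *rsrA*, *rsrB* and, by log2 difference among called genes without overlap between the mutants, the first 2 in each direction. No more are given because 0 of the 9721 identifiers match the RefSeq table of strain HP7-1 (assembly ASM172317v3). Amylase, transporter and other TF genes were tested where they passed the filter, but they cannot be named here. Counts at 2-fold and more refer to called genes.

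Whether the replicate numbers pair the mutants could be judged from the values alone. The deviations of same-numbered libraries from their strain means correlated across the 8491 genes with r = 0.583, 0.107 and 0.468 for numbers 1, 2 and 3. All were over the limit of 0.1 used for pairing. Differently numbered libraries also passed it, Δ*rsrA* replicate 2 with Δ*rsrB* replicate 3 (r = 0.252) and Δ*rsrA* replicate 3 with Δ*rsrB* replicate 2 (r = 0.108). The limit thus does not show that the numbers pair the libraries. Alternatives tried were adding 0.1 in place of 1, omitting the filter, a minimum mean FPKM of 5, equal totals, the median of ratios, quantile normalization, a robust variance prior, blocking by replicate number, fitting all 9 libraries together, and leaving out each library. The comparison, its genes and its alternatives were chosen with earlier results of these data known.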

Additional observations from a re-analysis of the deposited data

How the results depend on the processing

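The count of 5123 called genes stayed within 1.5 times under all alternatives, from 3961 with 1 fit over all 9 libraries to 5861 with the replicate block, and without 1 mutant library it was 4096 to 5207. The block kept 99.3% of the genes called without it and changed the call of no named gene. The split between directions moved with the scaling. Under the median of ratios Δ*rsrA* had 2211 higher and 2005 lower genes, 947 and 700 of them by at least 2-fold, and after quantile normalization 2070 genes were lower, 720 of them by at least 2-fold. In *rsrA*, POX08689, POX08688, POX07173 and POX07270 the direction and the call held under all 15 alternatives, and the highest adjusted p was that of POX07173, which ran from 4.15e-08 to 0.00107 (limma). *rsrB* fell under the filter at a mean FPKM of 5 and was called in the other 14. Without Δ*rsrB* replicate 1, Δ*ku70* was nearer to Δ*rsrB* in 68.0% of the higher and 64.6% of the lower genes of at least 2-fold. Leaving out Δ*ku70* replicate 1 from the comparison of ranges was chosen after seeing the data. For none of these shifts was the cause tested. Depth is unknown, so a gene listed at 0 is not shown to be absent.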

Other observations

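Genes that differed at least 4-fold sometimes had consecutive identifiers. Of the 157 higher genes, 12 (7.64%) belonged to runs of 3 or more consecutive numbers that were all higher in Δ*rsrA*, and of the 292 lower genes 21 (7.19%) belonged to such runs that were all lower. How many genes would fall in such runs by order alone was not computed, and the 12 higher genes came from only 2 runs. The longest run held 8 genes, POX08688 and POX08689 among them. Its mean FPKM was 306 to 8715 in Δ*rsrA* and 0.873 to 65.8 in Δ*rsrB*, and the single Δ*ku70* values were 0.31 to 58.7. The other higher run held 4 genes with mean FPKM of 23.6 to 4752 in Δ*rsrA* and 4.88 to 647 in Δ*rsrB*, and its single Δ*ku70* values were 21.8 to 29076. The longest lower run held 6 genes with mean FPKM of 16.6 to 46.1 in Δ*rsrA* and 152 to 1724 in Δ*rsrB*, and Δ*ku70* values of 101 to 4044. In a lower run of 5 genes, mean FPKM was 0.02 to 0.18 in Δ*rsrA* and 4.29 to 18.0 in Δ*rsrB*, with Δ*ku70* values of 0.11 to 2.53. Whether consecutive identifiers are neighbours on a chromosome was not tested.

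Some genes were listed at 0 in every library of one mutant and above 0 in every library of the other. There were 45 such genes at 0 in Δ*rsrA*, with a median mean FPKM of 0.27 and a highest of 2.37 in Δ*rsrB*. In the other direction 17 genes were at 0 in Δ*rsrB*, with a median of 0.573 in Δ*rsrA* and a highest of 7.85, which is *rsrB* itself. Few of these genes reached a mean FPKM of 1, with 1 and 5 of them tested, so detection in one mutant alone concerned weakly expressed genes.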
